A study of Homo sapiens with 6 samples.

Results

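The 9 genes of peptide secretion and neuroendocrine identity followed here in H1299 cells were CRH, CHGB, CHGA, SNAP25, SCG2, SCG5, UCHL1, VGF and CBLN2. They are 9 of the 19775 genes that had a probe set of their own on the array, and 13 probe sets measured them. They were chosen by name with their measured values in these arrays already known, so their differences between groups are given as a description, with no test. Of the 9, 7 had a mean of at least 4 on the log2 scale over the 6 arrays and entered the model fitted to 10526 genes. CHGA and SCG5 did not, and their values are given from the arrays alone.

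H1299 is an established human non-small-cell lung cancer line without functional p53. Cells of all 6 samples were infected with lentivirus and harvested after 72 hours. The control group, SC, carried a scramble short hairpin RNA (shRNA), and the groups RBP2 KD1 and RBP2 KD2, here shRNA 1 and shRNA 2, carried separate shRNAs against RBP2, each with 2 arrays. RBP2 is now called KDM5A, an enzyme that removes methyl groups from lysine 4 of histone H3. The design asks what changes when KDM5A is depleted, and with separate shRNAs it allows each to be set against the other. It is 1 cell line, and the labels do not say whether the arrays of a group came from separate cultures, so every SE and p-value measures only the spread between these arrays, which may be technical.

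Neuroendocrine cells store peptides in dense-core granules and release them on a signal. Granins, the acidic proteins encoded by CHGA, CHGB and SCG2 among others, help to build the granule matrix and are themselves cut into peptides, and SNARE proteins such as SNAP25 fuse the granule with the plasma membrane. In non-neuronal cells the repressor REST holds many of these genes down through a DNA element called RE1, while cyclic AMP acting through the factor CREB drives several of them up. In the lung these products mark small-cell carcinoma and the rare neuroendocrine cells of the airway, and KDM5A has been studied as a factor of neuroendocrine differentiation in small-cell lung cancer.

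Promoter sequence from RefSeq (build GRCh38.p14) was matched for 5 of the 9 genes: UCHL1, VGF, CHGA, SCG5 and CBLN2. The 3 windows below are shown because they hold the letters of the cyclic AMP response element, TGACGTCA, or of its core, TGACG, which are printed in capitals. Each is the 250 bases before the transcription start used by RefSeq, on the strand of the gene. For VGF (chr7:101165570-101165819, minus strand) and CHGA (chr14:92922900-92923149, plus strand) that start lies inside the gene's annotated span. The window of SCG5 is chr15:32641460-32641709 on the plus strand.
VGF: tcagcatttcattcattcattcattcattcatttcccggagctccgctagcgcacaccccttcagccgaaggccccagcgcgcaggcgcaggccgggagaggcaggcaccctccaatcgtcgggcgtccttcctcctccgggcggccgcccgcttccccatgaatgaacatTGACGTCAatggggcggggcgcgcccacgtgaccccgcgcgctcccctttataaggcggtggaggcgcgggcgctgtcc
CHGA: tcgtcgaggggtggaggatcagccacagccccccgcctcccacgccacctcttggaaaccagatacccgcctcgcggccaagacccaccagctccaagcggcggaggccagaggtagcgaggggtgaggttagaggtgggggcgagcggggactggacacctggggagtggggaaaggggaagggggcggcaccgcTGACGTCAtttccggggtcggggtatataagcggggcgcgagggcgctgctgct
SCG5: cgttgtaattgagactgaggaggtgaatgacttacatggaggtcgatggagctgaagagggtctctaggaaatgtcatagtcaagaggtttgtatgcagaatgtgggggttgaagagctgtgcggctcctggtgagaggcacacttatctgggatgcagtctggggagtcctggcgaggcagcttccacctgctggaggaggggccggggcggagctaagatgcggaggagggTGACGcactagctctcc
The whole element lies 79 to 72 bases before the start of VGF and 54 to 47 bases before that of CHGA, and the core alone lies 17 to 13 bases before the start of SCG5. Both strands were searched, and each whole element also holds the core, once on each strand, overlapping. Among 35116 RefSeq promoters of the same length, 1.65% held the whole element and 21.2% held the core. The first letters of RE1, TCAGCACC, were in none of the 5 windows and in 1.32% of all promoters. These are matches of letters, and the arrays measured no binding. VGF and CHGA, which share the whole element, differed in their values: VGF was read above the floor on all 6 arrays and CHGA on none.

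All values below are deposited log2 expression values, and a difference of 1 is a 2-fold difference. The values of a dim probe set are pressed to a floor, which was 2.24 for the lowest. KDM5A, the target, read 9.35 and 9.42 on the scramble arrays, 7.42 and 7.27 on the shRNA 1 arrays, and 6.66 and 6.72 on the shRNA 2 arrays. It was lower in all 4 knockdown arrays, by -2.04 ± 0.11 with shRNA 1 (SE, limma adjusted p = 0.0048) and by -2.69 ± 0.11 with shRNA 2 (limma adjusted p = 0.0024). The line's epithelial and mesenchymal genes KRT8, KRT18, VIM, CDH2 and FN1 were well above the floor, and KRT19, EPCAM and CDH1 stood at or near it. Of 6 blood and endothelial, 4 alveolar and 4 fibroblast markers, COL1A1 and SFTPB were above the minimum of 4 on the log2 scale, SFTPB with 5 of 6 arrays tied at a floor of its own. Among neuronal markers RBFOX3 and SYN1 stood at the floor on all 6 arrays, TUBB3 lay between 12.21 and 12.81, and MAP2 read 7.66 and 9.22 on the scramble arrays, 8.42 and 9.76 on the shRNA 1 arrays, and 11.24 and 11.04 on the shRNA 2 arrays. The part of any other cell type in the results was not tested.

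CRH encodes corticotropin-releasing hormone, the hypothalamic peptide that drives the pituitary to release ACTH. The gene lies on chromosome 8; positions given here for the other genes are RefSeq's on GRCh38.p14. Its brighter probe set, 205630_at, read 6.59 and 7.40 on the scramble arrays, 3.20 and 3.80 on the shRNA 1 arrays, and 9.70 and 10.33 on the shRNA 2 arrays. The 3 groups did not overlap: shRNA 1 lay lowest, scramble between and shRNA 2 highest. The group means were 6.99 ± 0.58 (SD, n = 2), 3.50 ± 0.43 and 10.01 ± 0.45. The shRNAs thus moved the value in opposite directions from scramble, by -3.49 ± 0.39 (moderated SE) with shRNA 1 and 3.02 ± 0.39 with shRNA 2, or 11.3-fold lower and 8.11-fold higher. Between the shRNAs the difference was 6.51, which is 91.4-fold. In a bulk sample, fewer cells making a transcript and less of it per cell cannot be told apart.

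The dimmer CRH probe set, 205629_s_at, kept the order of the groups with smaller steps below scramble. It read 4.30 and 4.44 on the scramble arrays, 3.35 and 3.73 on the shRNA 1 arrays, and 6.93 and 7.38 on the shRNA 2 arrays. Its difference was -0.83 with shRNA 1 and 2.78 with shRNA 2, so the probe sets gave a near-equal step up but differed in the step down, 1.78-fold here against 11.3-fold for the brighter one. Both shRNA 1 values of either probe set were under 4, near the floor, and the folds below scramble and between the shRNAs rest on them.

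**Figure D1:**
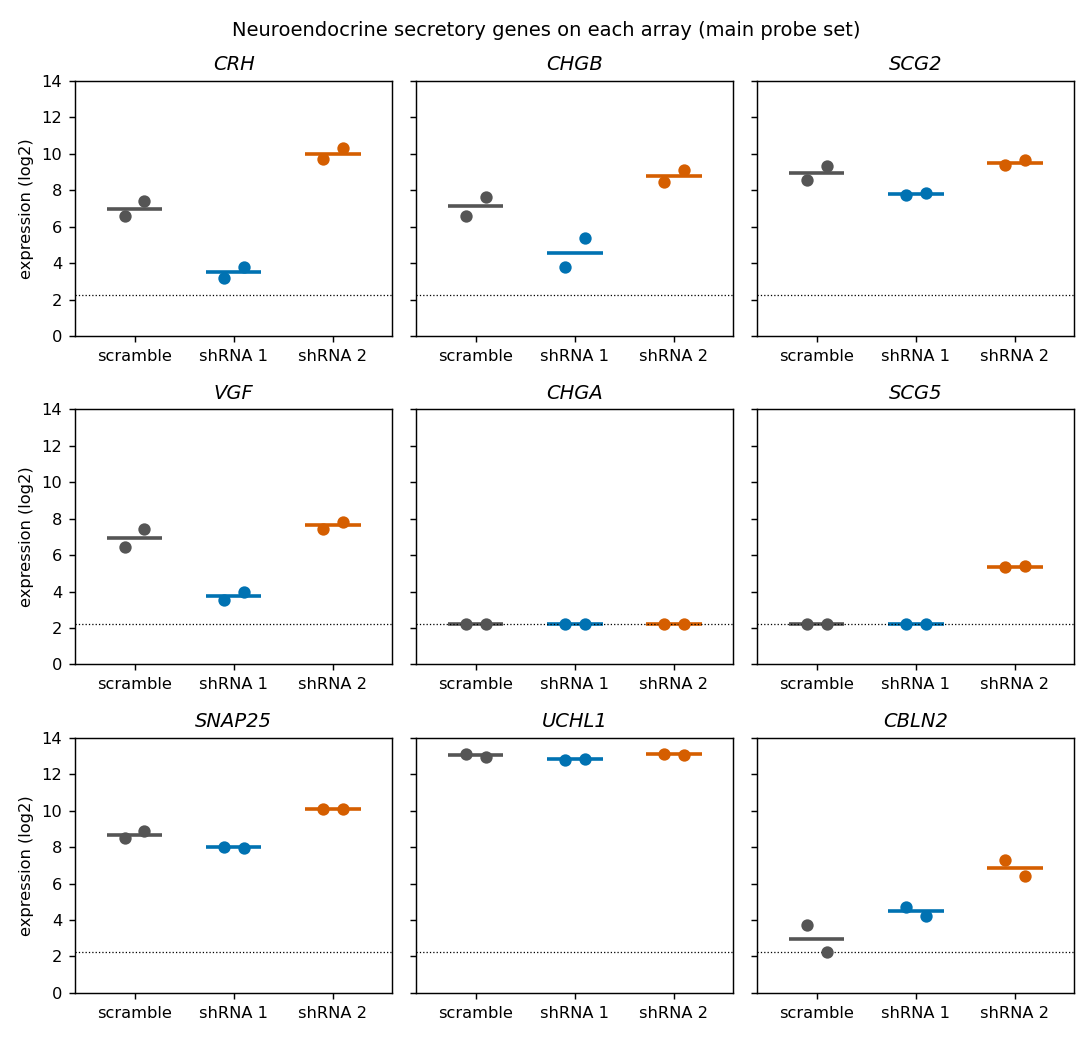
Log2 expression of the main probe set of each of the 9 genes (vertical axis) on the 6 arrays, by group (horizontal axis): points are arrays, bars are group means, and the dotted line is the lowest value of the data, 2.24. CRH, CHGB, SCG2 and SNAP25 run from shRNA 1 at the bottom through scramble to shRNA 2 at the top without overlap, CHGA lies on the floor throughout, and SCG5 leaves it with shRNA 2.

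CHGB encodes chromogranin B, a granin of the dense-core granule matrix (chr20:5911510-5925353). It read 6.59 and 7.64 on the scramble arrays, 3.80 and 5.36 on the shRNA 1 arrays, and 8.47 and 9.10 on the shRNA 2 arrays. As for CRH, the groups did not overlap and scramble lay between the shRNAs. The arrays of a group lay far apart, with an SD of 1.11 with shRNA 1 and 0.74 on the scramble arrays. CHGB was 5.79-fold lower with shRNA 1 (-2.53 ± 0.63, moderated SE) and 3.18-fold higher with shRNA 2 (1.67 ± 0.63). Between the shRNAs it differed 18.4-fold.

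SCG2 encodes secretogranin II, a granin that is the precursor of the peptide secretoneurin (chr2:223596940-223602361). It read 8.57 and 9.33 on the scramble arrays, 7.73 and 7.85 on the shRNA 1 arrays, and 9.40 and 9.64 on the shRNA 2 arrays. The order was again shRNA 1, scramble, shRNA 2, but the upper scramble array came within a small step of the lower shRNA 2 array. The difference from scramble was -1.16 ± 0.27 (moderated SE) with shRNA 1 and 0.57 ± 0.27 with shRNA 2. The step up was about as large as the SD of the scramble arrays, 0.54.

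VGF encodes a secreted precursor of several neuropeptides, induced by nerve growth factor in neurons (chr7:101162509-101169952). It read 6.45 and 7.44 on the scramble arrays, 3.55 and 3.95 on the shRNA 1 arrays, and 7.41 and 7.85 on the shRNA 2 arrays. Both shRNA 1 arrays lay far below all others, while shRNA 2 and scramble overlapped. The difference was -3.19 ± 0.37 (moderated SE), or 9.14-fold lower, with shRNA 1 and 0.69 ± 0.37 with shRNA 2. Its only probe set carries the mark of possible cross-hybridisation with other transcripts.

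CHGA encodes chromogranin A, the granin most used as a neuroendocrine marker in pathology (chr14:92922664-92935285). Its probe set read 2.24 on all 6 arrays. That is the floor, so no level and no difference can be read, and a value at the floor does not show that the transcript was absent.

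SCG5 encodes the protein 7B2, a chaperone of the prohormone convertase PCSK2 (chr15:32641710-32697092). It read 2.24 on both scramble and both shRNA 1 arrays, which is the floor, and 5.35 and 5.39 on the shRNA 2 arrays. It was thus above the floor in the shRNA 2 arrays only, at least 8.75-fold above the scramble value. No order can be read between scramble and shRNA 1.

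SNAP25 encodes the SNARE protein of the plasma membrane that takes part in granule and synaptic vesicle fusion (chr20:10218830-10307418). The brightest of its 3 probe sets, 202508_s_at, read 8.51 and 8.89 on the scramble arrays, 8.02 and 7.97 on the shRNA 1 arrays, and 10.12 and 10.10 on the shRNA 2 arrays. The groups did not overlap, and the arrays of an shRNA lay close together, with an SD of 0.04 for shRNA 1 and 0.01 for shRNA 2. It was 1.63-fold lower with shRNA 1 (-0.70 ± 0.15, moderated SE) and 2.66-fold higher with shRNA 2 (1.41 ± 0.15).

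The other SNAP25 probe sets gave the same order of groups. The probe set 202507_s_at read 6.75 and 6.55 on the scramble arrays, 5.78 and 5.58 on the shRNA 1 arrays, and 8.12 and 7.89 on the shRNA 2 arrays. The probe set 1556629_a_at read 7.10 and 7.06, then 5.58 and 6.10, then 7.37 and 7.64 in the same groups. With shRNA 1 the difference ran from -0.70 to -1.24 over the 3 probe sets, and with shRNA 2 from 0.42 to 1.41. The size of the step up with shRNA 2 therefore depends on the probe set: 1556629_a_at, which has the smallest step up, has the largest step down.

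UCHL1 encodes a ubiquitin carboxyl-terminal hydrolase that is abundant in neurons and serves as a neuroendocrine marker under the name PGP9.5 (chr4:41256928-41268455). Its brighter probe set read 13.14 and 12.94 on the scramble arrays, 12.79 and 12.87 on the shRNA 1 arrays, and 13.13 and 13.09 on the shRNA 2 arrays. The whole range over 6 arrays was 0.35. The difference from scramble was -0.21 ± 0.12 (moderated SE) with shRNA 1 and 0.07 ± 0.12 with shRNA 2, and scramble and shRNA 2 overlapped.

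The dimmer UCHL1 probe set, 1555834_at, disagreed on the order. It read 5.29 and 4.79 on the scramble arrays, 5.19 and 4.76 on the shRNA 1 arrays, and 4.79 and 4.52 on the shRNA 2 arrays. Here the shRNA 2 arrays lay lowest, by -0.38 from scramble, and shRNA 1 overlapped with scramble.

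CBLN2 encodes cerebellin 2, a secreted protein that organises synapses by binding neurexins (chr18:72536681-72638521). It read 3.73 and 2.25 on the scramble arrays, the latter at the floor, 4.73 and 4.23 on the shRNA 1 arrays, and 7.30 and 6.39 on the shRNA 2 arrays. Alone among the 9 genes it was higher than scramble with both shRNAs, and the groups did not overlap. The difference was 1.49 ± 0.57 (moderated SE) with shRNA 1 and 3.86 ± 0.57 with shRNA 2. With 1 of the 2 scramble arrays at the floor, the scramble mean is an upper bound and both differences are lower bounds. Its mean over the 6 arrays, 4.77, passed the minimum of 4 through the knockdown arrays, since the scramble mean was 2.99.

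**Figure D2:**
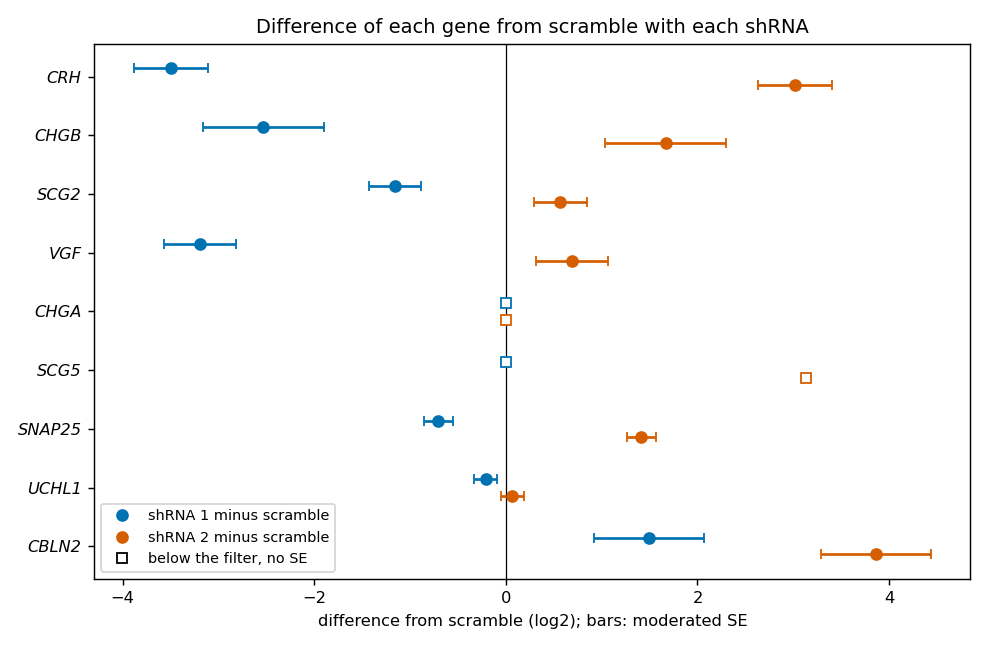
Difference of each gene's main probe set from scramble on the log2 scale (horizontal axis) with shRNA 1 (blue) and shRNA 2 (orange): circles are differences of group means with bars of 1 moderated SE, and open squares are CHGA and SCG5, which were below the filter and have no SE. CRH, CHGB, SCG2, VGF and SNAP25 lie left of 0 with shRNA 1 and right of it with shRNA 2, and CBLN2 lies right of 0 with both. UCHL1 also lies on both sides but close to 0, at -0.21 and 0.07 with an SE of 0.12.

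On the main probe sets of the 9 genes, shRNA 1 lay wholly below shRNA 2 for 8 of 9 genes, with CHGA tied at the floor. It lay wholly below scramble for 6 of 9, and shRNA 2 lay wholly above scramble for 6 of 9. Both held at once for CRH, CHGB, SNAP25 and SCG2. Over all 13 probe sets, both held for 7, and shRNA 1 lay below shRNA 2 for 11. Both comparisons use the same 2 scramble arrays, so a chance deviation of these enters both.

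The same order is common on these arrays. Of 10526 genes tested, 27.4% had shRNA 1 wholly below scramble, 40% had shRNA 2 wholly above scramble, and 40.6% had shRNA 1 wholly below shRNA 2. Both conditions against scramble held together for 11.8% of genes tested. The 9 genes were picked on these same values, so nothing is read from their counts beside these shares. For CRH the opposite differences cancelled in the mean of both shRNAs, which lay -0.24 ± 0.34 (moderated SE) from scramble.

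The replicate number ran through several of these genes. CRH, CHGB, SCG2 and VGF read higher on replicate 2 than on replicate 1 in all 3 groups, by 0.61 to 0.81 for CRH, 0.64 to 1.56 for CHGB, 0.12 to 0.77 for SCG2 and 0.40 to 0.99 for VGF. CBLN2 read lower on replicate 2 in all 3 groups. Taken within a replicate number, the difference of CRH from scramble was -3.39 and -3.60 with shRNA 1 and 3.11 and 2.93 with shRNA 2. For CHGB the values were -2.79 and -2.27 with shRNA 1, and 1.87 and 1.47 with shRNA 2. VGF, whose shRNA 2 arrays overlapped with scramble, was higher with shRNA 2 within both numbers, by 0.96 and 0.41. For SCG2 with shRNA 2 they were 0.83 and 0.31.

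Single arrays decided the size of several differences. The step of SCG2 with shRNA 2 was 0.19 without scramble replicate 1 and 0.95 without scramble replicate 2, and that of VGF was 0.19 and 1.18. With shRNA 1, SCG2 read -1.54 and -0.77 from scramble without the same arrays in turn. CBLN2 with shRNA 1 stood 2.23 above scramble without scramble replicate 1, which leaves only the array at the floor, and 0.75 without scramble replicate 2. CHGB with shRNA 1 lay -1.75 from scramble without shRNA 1 replicate 1 and -3.31 without shRNA 1 replicate 2. UCHL1 with shRNA 2 turned from 0.07 to -0.03 without scramble replicate 2. CRH kept its directions and sizes, between -3.09 and -3.90 with shRNA 1 and between 2.61 and 3.43 with shRNA 2 over the 6 left-out arrays.

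Likeness to other genes was measured as the root mean square difference over the 6 arrays, after each gene was centred on its own mean, against 10525 other tested genes. It is a description of 6 points in 3 groups. Nearest to CRH were the collagenase gene MMP1 at 0.69, the myosin gene MYH15 at 0.86 and RAB39B, a small GTPase of vesicle traffic, at 0.88. Among the members CHGB stood at rank 5 from CRH at 0.99 and VGF stood at rank 17, while SNAP25 and SCG2, with smaller steps, stood at 205 and 325. MYH15 read 5.03 and 5.12 on the scramble arrays, 2.62 and 3.52 on the shRNA 1 arrays, and 7.51 and 7.79 on the shRNA 2 arrays, which is the order of groups seen for CRH.

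CHGB and VGF shared neighbours. CHGB was nearest to the secreted phosphoprotein gene SPP1 at 0.41, the hexokinase gene HK2 at 0.48 and MYH15 at 0.51, with VGF at rank 4 and 0.53. VGF was nearest to OGFRL1 at 0.15, SPP1 at 0.23 and HK2 at 0.29, and CHGB stood at rank 16. SPP1 read 9.55 and 10.32 on the scramble arrays, 6.31 and 7.11 on the shRNA 1 arrays, and 10.86 and 11.10 on the shRNA 2 arrays, which shows the large step down and small step up of VGF. SNAP25 was nearest to the cyclin gene CCND1, RGS17 and HYI, and SCG2 to RAPGEF5, ZNF277 and CHST15, all at 0.11 to 0.12. CBLN2 and SCG5 are left out, since each had arrays at the floor.

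**Figure D3:**
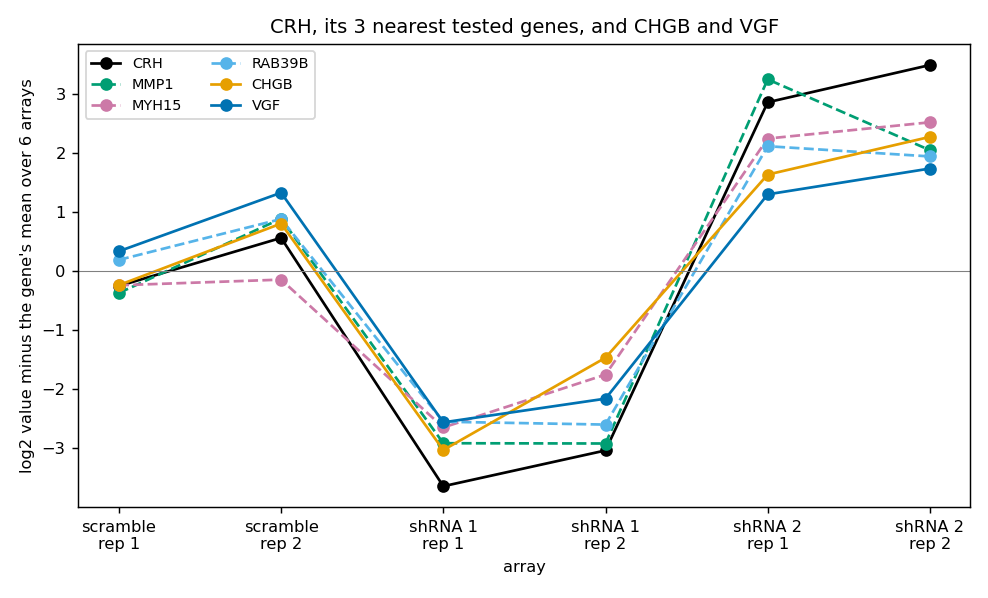
Log2 value minus the gene's own mean over 6 arrays (vertical axis) on each array (horizontal axis) for CRH, its 3 nearest tested genes MMP1, MYH15 and RAB39B (dashed), and CHGB and VGF; lines join the points of a gene only to guide the eye. All have their lowest values on the shRNA 1 arrays and their highest on an shRNA 2 array, and CRH has the widest range, 7.13.

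The genes around the 9 members were counted in 8 lists of 239 genes that hold no member: granule cargo processing, regulated exocytosis, other peptide precursors, CRH receptors and the cyclic AMP response, neuroendocrine factors, the REST corepressor complex, ubiquitin hydrolases and cerebellin receptors. A probe set was found for 217 of them, and 101 were tested. The lists were chosen with earlier results of these data known, so their shares beside those of all genes are a description only. With shRNA 2, 28 of the 101 rose and 8 fell (35.6%, beside 31% of all genes), at a median difference of 0.14 against 0.08 over all genes. With shRNA 1, 1 rose and 10 fell (10.9%, beside 11.5%), at a median of 0.03. For the mean of both shRNAs 7 rose and 3 fell (9.9%, beside 12.5%). Between the shRNAs 47 differed, 31 of them lower and 16 higher with shRNA 1 (46.5%, beside 41.1% of all genes).

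These counts depend on the model and on single arrays. With the replicate number as a block, 32 list genes were called for the mean of both shRNAs, 21 higher and 11 lower, beside 34.9% of all genes, and 32 with shRNA 1, 14 higher and 18 lower, beside 29.6%. The block gave 54 for shRNA 2, 38 higher and 16 lower, beside 50.6%, and 62 between the shRNAs, 42 lower and 20 higher with shRNA 1, beside 57.7%. No call named below was lost with the block. Leaving out 1 array leaves 1 array in its group. The number of genes called then fell over all tested genes in every comparison. The list counts fell or stayed with it, so the drop is not particular to the list genes. Of the list genes' calls chosen for naming, 0 of 10 for the mean, 0 of 11 for shRNA 1, 9 of 17 for shRNA 2 and 11 of 16 between the shRNAs held whichever array was left out.

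Peptide precursors other than the members were mostly dim: of 53 genes, 49 had a probe set, and 3 of these reached the minimum and were tested. NMB, the precursor of neuromedin B, rose with shRNA 2 (0.95 ± 0.21, limma adjusted p = 0.025). ADM, the precursor of adrenomedullin, with shRNA 1 exceeded its shRNA 2 level by 1.91 ± 0.54 (limma adjusted p = 0.042). Of 7 tested genes of granule cargo processing, 2 rose with shRNA 2 (28.6%, beside 31% of all genes) and 1 fell with shRNA 1 (14.3%, beside 11.5%). FURIN, a proprotein convertase, and QPCT, which caps peptides with pyroglutamate, rose with shRNA 2 by 1.12 ± 0.26 and 1.17 ± 0.26 (limma adjusted p = 0.029 and 0.028). CPD, a carboxypeptidase that trims peptide ends, read 8.43 and 8.71 on the scramble arrays, 5.07 and 5.56 on the shRNA 1 arrays, and 7.14 and 7.91 on the shRNA 2 arrays, and fell with shRNA 1 by -3.25 ± 0.32 (limma adjusted p = 0.010).

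Of 26 tested genes of regulated exocytosis, 10 rose and 4 fell with shRNA 2 (53.8%, beside 31% of all genes), and 2 fell with shRNA 1 (7.69%, beside 11.5%). SYT11, a synaptotagmin, read 3.22 and 3.72 on the scramble arrays, 2.67 and 3.03 on the shRNA 1 arrays, and 6.28 and 6.49 on the shRNA 2 arrays. It rose by 2.91 ± 0.23 with shRNA 2 (limma adjusted p = 0.0033). Its mean over the 6 arrays, 4.24, passed the minimum of 4 only through the shRNA 2 arrays. Its place among the 10 that rose, and its p-value, therefore follow in part from the filter. All its scramble and shRNA 1 values were under 4, and those with shRNA 1 lay near the floor. SYTL2, a partner of RAB27 on secretory granules, had the same order as CRH: it fell by -1.15 ± 0.24 with shRNA 1 (limma adjusted p = 0.045) and rose by 2.02 ± 0.24 with shRNA 2 (adjusted p = 0.0063). The vesicle SNARE gene VAMP3 ran the other way and fell with shRNA 2 by -1.54 ± 0.19 (limma adjusted p = 0.0071). RAB27A, the GTPase that docks granules, fell with both shRNAs on its brightest probe set, by -0.78 ± 0.11 and -0.87 ± 0.11 (limma adjusted p = 0.019 and 0.0065), but 2 of its 4 other probe sets were higher than scramble with shRNA 2. The shRNA 1 call of RAB27A was lost whichever array was left out.

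Of 25 tested genes of CRH receptors and the cyclic AMP response, 7 rose and 1 fell with shRNA 2 (32%) and 3 fell with shRNA 1 (12%), shares close to the 31% and 11.5% of all genes. NR4A2, a nuclear receptor induced by cyclic AMP, read 6.71 and 7.05 on the scramble arrays, 5.21 and 4.89 on the shRNA 1 arrays, and 8.93 and 9.50 on the shRNA 2 arrays. It fell with shRNA 1 by -1.83 ± 0.25 (limma adjusted p = 0.019) and rose with shRNA 2 by 2.34 ± 0.25 (adjusted p = 0.0050). The phosphodiesterase gene PDE4B and PRKAR2B, a regulatory subunit of protein kinase A, had this order too, with -1.41 and 1.27, and -1.10 and 0.68. The shRNA 1 calls of NR4A2, PDE4B and PRKAR2B were lost whichever array was left out. The NR4A2 probe sets carry the mark of possible cross-hybridisation. CREM, which encodes activators and repressors of this response, rose with shRNA 2 by 1.85 ± 0.14 (limma adjusted p = 0.0033). Its probe set 228092_at, the brightest without a mark of cross-hybridisation, read only 0.29 above scramble (limma adjusted p = 0.38). The other unmarked probe set, 230511_at, which is dimmer, read 1.82 above scramble. The marked 207630_s_at and 214508_x_at read 2.01 and 2.03 above it. ADCY9, an adenylyl cyclase, rose with shRNA 2 by 1.42 ± 0.20 (limma adjusted p = 0.0095).

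Of 40 neuroendocrine factors and markers, 38 had a probe set and only 12 were tested. Markers such as INSM1, NCAM1 and DDC were under the minimum. Among the 12 tested, 5 rose and 1 fell with shRNA 2 (50%, beside 31% of all genes) and 2 fell with shRNA 1 (16.7%, beside 11.5%). Between the shRNAs 9 differed, 8 of them lower with shRNA 1 (75%, beside 41.1%). KIF5C, a neuronal kinesin, read 8.07 and 7.87 on the scramble arrays, 6.47 and 6.65 on the shRNA 1 arrays, and 9.93 and 9.90 on the shRNA 2 arrays. It fell with shRNA 1 by -1.41 ± 0.13 (limma adjusted p = 0.0083) and rose with shRNA 2 by 1.95 ± 0.13 (adjusted p = 0.0032). DLL3, a Notch ligand of small-cell lung cancer, shared this order, with -1.28 ± 0.11 and 0.83 ± 0.11 (limma adjusted p = 0.0080 and 0.0085). The KIF5C and DLL3 probe sets read here carry the mark of possible cross-hybridisation. SOX4 and POU3F2, transcription factors of neural development, rose with shRNA 2 by 2.13 ± 0.10 and 1.31 ± 0.15 (limma adjusted p = 0.0024 and 0.0054). YAP1, a Hippo pathway coactivator that is low in neuroendocrine lung tumours, fell with shRNA 2 by -1.33 ± 0.15 (limma adjusted p = 0.0052), though its dimmest probe set read 0.10 above scramble.

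REST itself read 9.82 and 10.13 on the scramble arrays, 10.56 and 10.82 on the shRNA 1 arrays, and 9.35 and 9.55 on the shRNA 2 arrays. The groups did not overlap, and the order was the reverse of that of CRH and CHGB. REST with shRNA 1 exceeded REST with shRNA 2 by 1.23 ± 0.17 (limma adjusted p = 0.0057), and this p was 0.051 without shRNA 2 replicate 1. Against scramble it read 0.71 ± 0.17 with shRNA 1 (limma adjusted p = 0.064) and -0.52 ± 0.17 with shRNA 2 (adjusted p = 0.077). With the replicate number as a block both passed, at limma adjusted p = 0.0093 and 0.0096, so REST rose with shRNA 1 and fell with shRNA 2 in that model only. Whether REST plays a part in the members' values was not tested.

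Of the 18 tested genes of the REST corepressor complex, 2 rose and 1 fell with shRNA 2 (16.7%, beside 31% of all genes), and 1 rose and 2 fell with shRNA 1 (16.7%, beside 11.5%). Between the shRNAs 9 differed, 6 of them higher with shRNA 1 (50%, beside 41.1%). The H3K9 methyltransferase genes EHMT1 and EHMT2 rose with shRNA 2 by 1.11 ± 0.16 and 0.99 ± 0.11 (limma adjusted p = 0.0089 and 0.0059). With shRNA 1, EHMT1 rose by 0.72 ± 0.16, while the deacetylase gene HDAC1 and the phosphatase gene CTDSPL fell by -0.94 ± 0.17 and -1.44 ± 0.24 (limma adjusted p = 0.049, 0.032 and 0.029). The calls of EHMT1 and HDAC1 with shRNA 1 were lost whichever of the 6 arrays was left out. For EHMT1 with shRNA 1 the mean of all its probe sets gave 0.30 (limma adjusted p = 0.18). CTDSP1, a phosphatase related to CTDSPL, fell with shRNA 2 by -1.27 ± 0.27 (limma adjusted p = 0.025), a call also lost whichever array was left out. Of 9 ubiquitin enzymes, 2 passed with shRNA 2 (22.2%, beside 31%). The deubiquitinase gene USP7 fell by -1.06 ± 0.13 and the ubiquitin-activating enzyme gene UBA1 rose by 0.52 ± 0.12 (limma adjusted p = 0.0070 and 0.032). The USP7 probe set 201499_s_at, nearly as bright, read only -0.15 from scramble with shRNA 2, and the dimmer 222032_s_at read -0.80. The 1 tested cerebellin receptor gene, NEO1, read within 0.03 of scramble with both shRNAs. Its value was tied at 4.61 on 4 of the 6 arrays, which the rule used here marks as floor. Scramble replicate 2 read lower, at 4.56, so the tie is not a true floor. With so many arrays tied, little can be read from the difference.

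**Figure D4:**
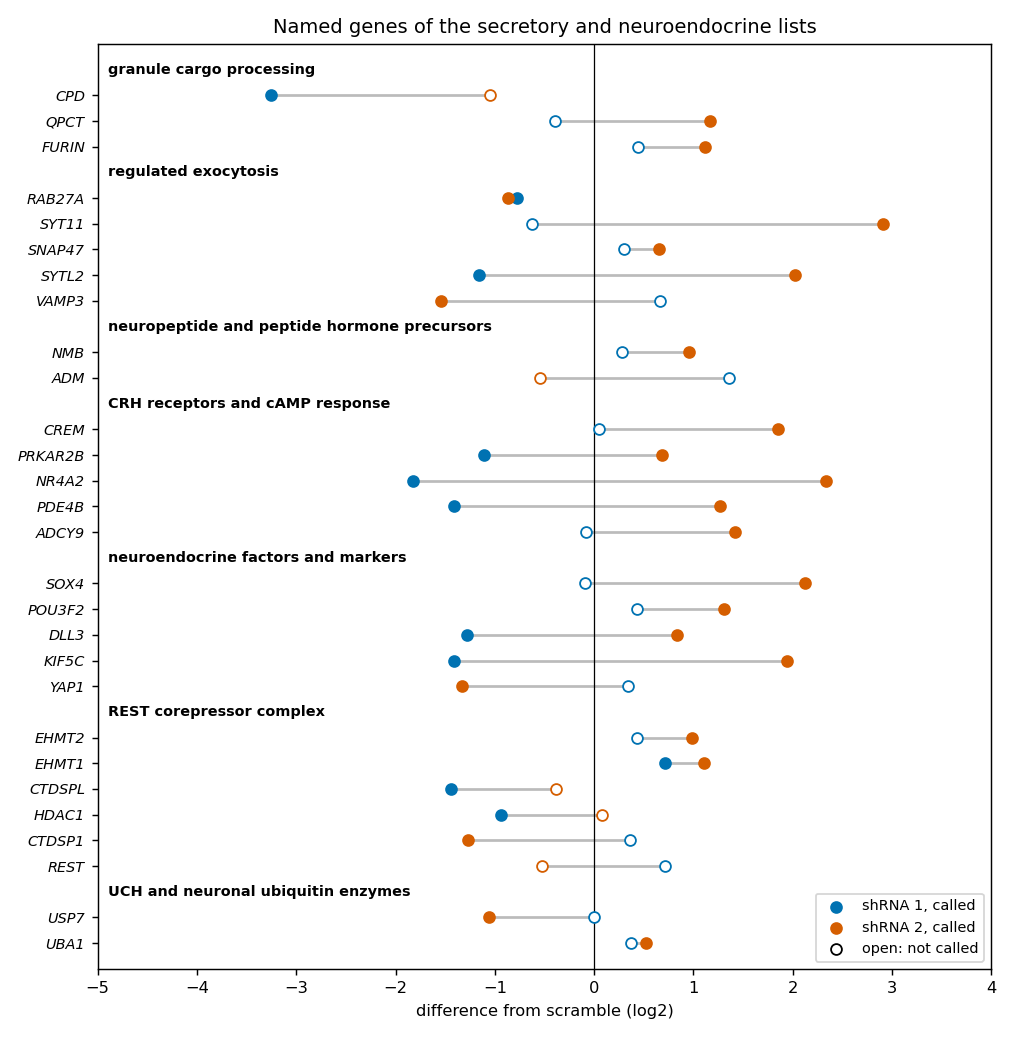
Difference from scramble on the log2 scale (horizontal axis) of the named genes of the lists, grouped by list, with shRNA 1 in blue and shRNA 2 in orange; filled circles passed limma at an adjusted p under 0.05 and open ones did not, and a grey line joins the pair. KIF5C, DLL3, NR4A2, PDE4B, PRKAR2B and SYTL2 are filled on both sides of 0, with shRNA 1 on the left. None of their shRNA 1 calls held under every left-out array.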

How the data were processed

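Transcript levels of 6 arrays of H1299 cells were analysed. The values are log2 expression values that the authors deposited, summarised with GCRMA per the submitters' processing notes, in a version not given in the sources used here. This method presses dim probe sets to a floor, taken here as values within 0.01 of 2.24 or tied between arrays. A tie is not always a floor. CREM tied at 8.28 on 2 arrays but read lower, at 8.04, on scramble replicate 1. ADCY9 tied at 7.20 on 2 arrays. The values of both were used as read. The number of arrays limits the precision (median SE 0.17 for 1 shRNA against scramble).

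Each gene took its probe set with the highest mean, and genes with a mean of at least 4 were tested with limma 3.58.1 in R 4.3.3, 1 model over all arrays with 3 residual and 2.09 prior degrees of freedom, two-sided, Benjamini-Hochberg adjusted over 10526 genes. Calls are at an adjusted p under 0.05. The scripts were tested on simulated data.

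The titles give the replicate numbers. Arrays that share a number deviated together from the means of their groups, with correlations of 0.75, 0.51 and 0.53 over genes in the 3 pairs of groups, so the numbers were taken to pair the arrays, and the counts with the block stand beside those without it.

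The members and lists were chosen with earlier results of these data known. Named are all members, KDM5A, the 3 genes nearest to a member that ranged over at least 1, and of each list up to 4 genes called in the mean comparison and up to 3 in each other one, by adjusted p. Where no gene of a list was called, its 2 largest differences were named; 22 list genes were not analysed here. Alternatives covered probe sets, filters, scaling, a variance trend, the block and arrays left out.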

Additional observations from a re-analysis of the deposited data

Results flagged for a closer look

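Values here are shRNA 2 minus shRNA 1 on the log2 scale, for genes that lay on opposite sides of scramble with the shRNAs. Among the 9 genes, all arrays of shRNA 1 lay below scramble and all arrays of shRNA 2 above it for CRH (6.51), CHGB (4.20), SNAP25 (2.12) and SCG2 (1.73), and this difference was not tested, since the genes were chosen with it known. Among list genes the difference itself passed limma at an adjusted p under 0.05, and these were higher with shRNA 2: NR4A2 (4.16), SYT11 (3.54), KIF5C (3.36), SYTL2 (3.17), PDE4B (2.68), SOX4 (2.21), DLL3 (2.11) and PRKAR2B (1.79). Lower with shRNA 2 were VAMP3 (-2.20), ADM (-1.91), YAP1 (-1.67) and REST (-1.23). SOX4 lay within 0.09 of scramble with shRNA 1. SYT11 passed the minimum of 4 only through its shRNA 2 arrays, so its limma result is given as a description. The difference of ADM lost its call without 4 of the 6 arrays, each left out in turn, and its shRNA 1 arrays read 10.46 and 8.84.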

How the results depend on the processing

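The differences of the 9 genes from scramble changed sign under an alternative only for UCHL1 with shRNA 2 (also -0.03 without scramble replicate 2), while CHGA and SCG5 left 0 when arrays were centred; other values that moved by more than the spread between arrays are listed next. With the mean of all probe sets, CRH read -2.16 with shRNA 1, SNAP25 -0.97 with shRNA 1 and 1.06 with shRNA 2, and UCHL1 -0.16 with shRNA 2. Probe sets marked for cross-hybridisation were dropped only where the gene had an unmarked one. SNAP25 then read -1.24 and 0.42, and UCHL1 -0.066 and -0.38, with shRNA 1 and shRNA 2. VGF, CHGA, NR4A2 and DLL3 kept their marked probe sets, so this setting could not test them. With arrays centred on their median, CHGA read 0.041 with shRNA 1 and 0.044 with shRNA 2, and SCG5 0.041 and 3.17, which is the shift of the floor. Of the named calls, 26 were lost with no filter on dim probe sets, where 28 held, among them the shRNA 2 calls of QPCT, FURIN and NMB and the shRNA 1 call of CPD (limma adjusted p = 0.14, 0.14, 0.12 and 0.066). With the mean of all probe sets 6 were lost and 42 held (SYTL2 and EHMT1 with shRNA 1, EHMT1, EHMT2 and USP7 in the mean comparison, UBA1 with shRNA 2), and with the arrays of the groups compared alone 8 were lost and 36 held. Without marked probe sets CREM turned to -0.15 in the mean comparison and lost its call with shRNA 2 (0.29, limma adjusted p = 0.38). That setting took 228092_at, and the dimmer unmarked probe set, 230511_at, read 0.96 in the mean comparison and 1.82 with shRNA 2. Counts of list genes called moved as follows. With no filter on dim probe sets, which raises the number of genes tested, they were 5 for the mean of both shRNAs, 4 for shRNA 1 and 31 between the shRNAs. With the replicate block they were 32 for the mean, 32 for shRNA 1, 54 for shRNA 2 and 62 between the shRNAs; named genes gained 8, 7, 2 and 3 calls in that order and lost none. Using only the arrays of the groups compared gave 5 for shRNA 1. Leaving out 1 array in turn gave 0 to 3 for the mean, 0 to 5 for shRNA 1, 10 to 36 for shRNA 2 and 19 to 39 between the shRNAs. An array left alone in its group is assumed to vary like the other groups. Where no cause is given, the cause was not tested. With 2 arrays a group, a probe set at the floor gives no level, which limits CHGA, SCG5 and CBLN2.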
